A study of Mus musculus with 6 samples.

Results

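The genes described here are 10 genes of MHC class I antigen presentation in mouse skin: the class I heavy chains H2-K1 and H2-D1, their light chain B2m, the peptide transporter subunits Tap1 and Tap2, the loading factor Tapbp, the immunoproteasome subunits Psmb8, Psmb9 and Psmb10, and the class I transactivator Nlrc5. They were chosen by symbol, and all 10 were found among the 31053 genes listed for every library. The study profiled single cells of dorsal skin by 3′ RNA sequencing with unique molecular identifiers (UMIs), in 6 libraries of 3 groups with 2 libraries each. All mice were female C57BL/6 (given as C57BL/6J in the protocol), 8 to 10 weeks old, with no genetic change named in the labels. The Sham group received neither compound. The IMQ group received 62.5 mg of 5% imiquimod cream, an agonist of Toll-like receptor 7 that induces psoriasis-like inflammation, on shaved dorsal skin each day for 4 days, and was killed 1 day after the last dose. The IMQ+SHP099 group received the same cream and SHP099, which holds the phosphatase SHP2 in its closed, inactive form, given into the stomach at 10 mg/kg on each of 4 days. Imiquimod dermatitis models an acute, drug-induced inflammation, skin of several mice went into each library, and each library is therefore 1 replicate, so that p-values measure the spread between libraries only.

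Class I molecules display peptides from the inside of a cell to CD8 T cells and natural killer cells. In cells exposed to interferons, the proteasome subunits Psmb8 (β5i), Psmb9 (β1i) and Psmb10 (β2i) replace the constitutive catalytic subunits Psmb5, Psmb6 and Psmb7, the TAP transporter carries the resulting peptides into the endoplasmic reticulum, and tapasin (Tapbp) bridges TAP to the heavy chain and B2m. Nlrc5 is an interferon-inducible regulator that acts with RFX and CREB family factors at the promoters of class I genes.

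The 10 genes lie on 3 chromosomes, and 7 of them lie in or beside the MHC (GRCm38 coordinates, annotation of the matching build). On chromosome 17 the order was Tapbp (33915899 to 33929292, plus strand), H2-K1 (33996017 to 34000347, minus strand), Psmb9 (34181987 to 34187764, minus), Tap1 (34187553 to 34197225, plus), Psmb8 (34197721 to 34201454, plus), Tap2 (34203527 to 34216321, plus) and H2-D1 (35262730 to 35267499, plus). B2m lies on chromosome 2 (122147686 to 122153083, plus), and chromosome 8 carries Nlrc5 (94434356 to 94527272, plus) and Psmb10 (105935735 to 105938444, minus). Psmb9 and Tap1 overlap at their 5′ ends on opposite strands, and Psmb10 overlaps the antisense gene Gm16156. In the last 500 bases of each member's transcript, which a 3′ assay reads, 0 of 401 windows of 100 bases occurred in another gene.

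Promoter sequence is shown for 6 members to set their sequence features beside their different changes in keratinocytes, described below. The sequences are RefSeq's, build GRCm38.p6, and were searched on both strands over the 250 bases before each start. The letters searched were GGGNNTTCC (NF-kB), GAAANNGAA (a core of the interferon-stimulated response element), TTCNNNGAA (the GAS element of interferon-responsive promoters) and TGACGNCA (the CREB-like X2 box). Capitals mark the match, and the window of Psmb10 held none. The windows are H2-K1, chr17:34000334-34000483, minus strand. For H2-D1 the window is chr17:35262914-35263093, plus strand. B2m is shown over chr2:122147537-122147686, plus strand. The Tap1 window, chr17:34187331-34187555, plus strand, spans the 225 bases between the starts of Psmb9 and Tap1, which serve both genes. The remaining windows are Psmb8, chr17:34198045-34198194, plus strand, and Psmb10, chr8:105938393-105938542, minus strand.
H2-K1: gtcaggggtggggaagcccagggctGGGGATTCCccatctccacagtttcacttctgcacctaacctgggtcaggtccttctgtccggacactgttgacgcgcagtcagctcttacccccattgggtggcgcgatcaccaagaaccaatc
H2-D1: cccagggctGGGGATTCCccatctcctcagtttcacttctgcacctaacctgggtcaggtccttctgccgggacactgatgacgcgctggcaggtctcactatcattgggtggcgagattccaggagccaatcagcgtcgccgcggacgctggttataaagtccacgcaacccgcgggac
B2m: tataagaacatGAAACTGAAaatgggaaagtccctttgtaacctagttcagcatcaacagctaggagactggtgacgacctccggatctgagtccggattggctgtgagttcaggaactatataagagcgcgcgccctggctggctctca
Tap1: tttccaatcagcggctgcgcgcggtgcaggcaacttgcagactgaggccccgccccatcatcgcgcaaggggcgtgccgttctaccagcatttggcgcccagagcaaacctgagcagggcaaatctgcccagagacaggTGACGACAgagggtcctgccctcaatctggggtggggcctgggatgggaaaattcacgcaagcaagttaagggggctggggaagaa
Psmb8: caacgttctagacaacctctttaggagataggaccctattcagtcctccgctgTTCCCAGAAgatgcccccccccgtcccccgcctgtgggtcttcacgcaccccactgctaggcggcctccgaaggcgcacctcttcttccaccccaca
Psmb10: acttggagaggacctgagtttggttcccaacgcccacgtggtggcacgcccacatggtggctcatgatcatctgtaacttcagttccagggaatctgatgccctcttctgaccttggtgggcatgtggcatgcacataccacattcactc
The NF-kB letters stood 125 bases before the start shown for H2-K1 and 171 bases before that of H2-D1, in the same run of 9 bases. Such a match occurred in 4.98% of 32851 promoter windows of this length. The interferon-response letters in B2m had a share of 7.13%, the GAS letters in Psmb8 7.02%, and the X2-like letters between Psmb9 and Tap1 2.75%. Tapbp and Psmb10 had no match to any of the 4 patterns in their windows, which says only that these letters are not there. The same holds for each pattern without a match in the windows of the other members, H2-K1 and H2-D1 included. Sites that differ from the letters searched would not be found and are not marked. The promoter sequences available held no entry for Nlrc5 or Tap2, so neither was searched.

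After the filters on UMIs, genes and mitochondrial RNA 50850 cells were kept, 7382 to 10293 per library, and library depth ran from 53913865 to 188283327 deposited UMIs. Any pair of libraries shared 12 to 30 barcodes. The median UMI count per cell was 5645 to 8854 in 5 libraries and 18264 in IMQ+SHP099 replicate 1, so levels are given as counts per 1000000 UMIs (CPM) of a class in a library. A gate on marker genes, none of them a member, placed 46650 cells (91.7%) in classes, and 97.7% of those fell in the same class when clustered. The assignment was weaker for some subsets: 54.9% of the macrophages and monocytes and 27.4% of the dendritic and Langerhans cells kept their name in the clusters. The number of cells per library was 441 to 6127 for keratinocytes, 1093 to 6070 for fibroblasts, 106 to 446 for endothelial cells, 180 to 625 for T lymphocytes and 44 to 441 for macrophages and monocytes.

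The class with the highest median level differed between members. For H2-K1 the median over the libraries was 2215 (1796 to 2803) CPM in T lymphocytes, with the lowest and the highest library in brackets, 1944 (1546 to 2824) in endothelial cells, 1259.9 (881 to 2639) in macrophages and monocytes and 1141 (948 to 1387) in fibroblasts. Dendritic and Langerhans cells followed with 989 (772 to 1241) and keratinocytes with 686 (499 to 1349), and mural cells, the smooth muscle and pericytes of vessels, had the lowest median of H2-K1, 277 (252 to 529). The light chain B2m was highest in macrophages and monocytes at 2572 (2114 to 3971) CPM, then in endothelial cells at 2365 (2055 to 3604), and keratinocytes had 605 (469 to 1260.3). The ranges of B2m in keratinocytes and in mural cells, 587 (367 to 1197), overlapped.

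Psmb8 and Psmb9 had the same order of all 7 classes, while Psmb10 and Nlrc5 had other orders. Psmb8, the β5i subunit, had a median of 1046 (506 to 1158) CPM in dendritic and Langerhans cells (5 libraries with at least 20 cells), 436 (316 to 475) in macrophages and monocytes, 289 (276 to 442) in T lymphocytes and 53.0 (31.01 to 143) in keratinocytes. For Psmb10, the β2i subunit, macrophages and monocytes came first with 202 (185 to 228) CPM, endothelial cells had 100.02 (74.2 to 229) and keratinocytes 45.5 (19.7 to 53.9). Nlrc5 was a rare transcript throughout, with 22.3 (10.96 to 40.6) CPM in T lymphocytes, 15.99 (9.76 to 25.02) in macrophages and monocytes, 13.9 (5.32 to 30.7) in endothelial cells, 7.41 (5.31 to 35.1) in keratinocytes and 5.79 (4.32 to 7.30) in fibroblasts. The upper end of the keratinocyte range of Nlrc5 came from the Sham libraries. Mural cells had the lowest median of Nlrc5, with 0 UMIs in 120 cells of IMQ+SHP099 replicate 1, which allows up to 4.05 CPM at 3 UMIs.

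Most neighbours in these orders could not be separated. Over the 10 members and 7 classes there were 60 pairs of neighbouring classes, and 18 pairs stood in the same order in every library. An exact sign-flip permutation test over the libraries (two-sided, smallest possible p 0.031 with 6 libraries) gave that smallest p for 14 of the pairs, and after Benjamini-Hochberg adjustment over the 60 pairs 0 passed 0.05 (lowest adjusted p = 0.134).

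**Figure D1:**
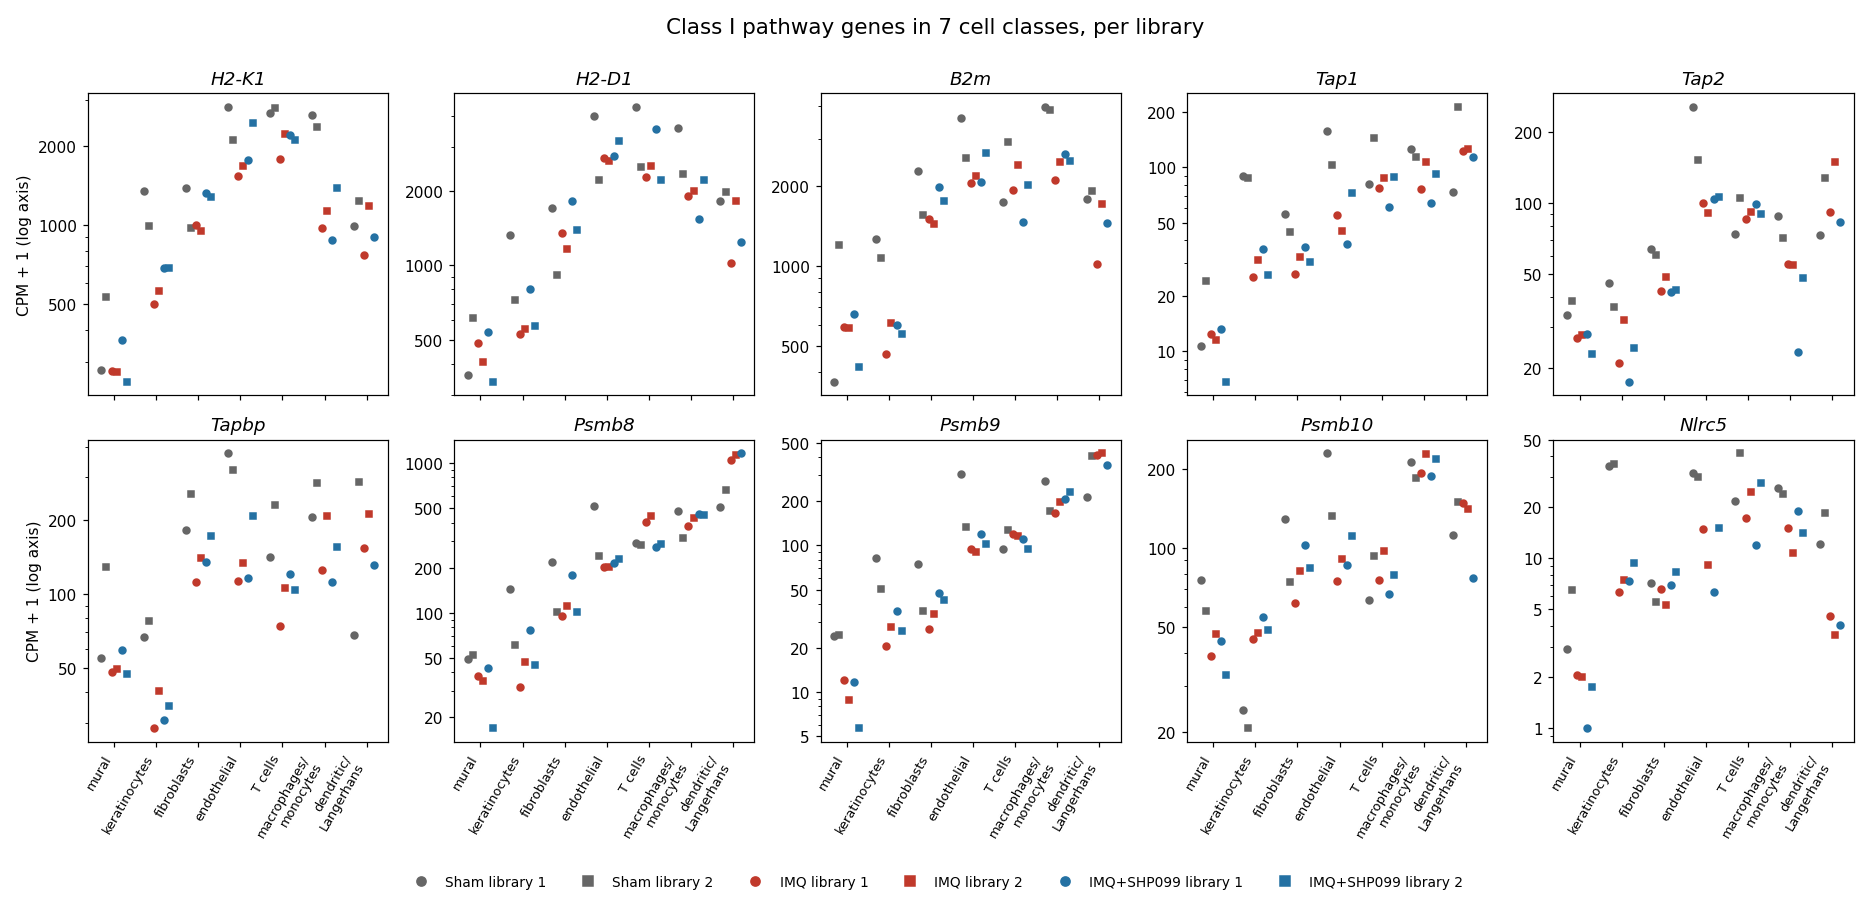
Levels of the 10 genes by cell class, as CPM + 1 on log axes, with 1 point per library coloured by group. Psmb8 has its highest median in dendritic and Langerhans cells, H2-K1 in T lymphocytes, and the mural cells are lowest for both.

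Against keratinocytes, and scaled to the UMIs of each class, the members were higher in the other classes more often than lower. The mean UMI count per cell was 13553 to 34393 in keratinocytes and 1625 to 4776 in T lymphocytes. The classes were not compared in UMIs per cell. One edgeR quasi-likelihood fit over 5 classes, with the library as a block and 13566 genes tested, compared each class with keratinocytes averaged over the 3 groups. In T lymphocytes 10 of 10 members passed an adjusted p of 0.05, all higher, where 64.4% of all genes passed. In macrophages and monocytes 9 passed, all higher, against 60.3% of all genes, and in endothelial cells 8 passed, all higher, against 64.8%. In fibroblasts 8 passed, 7 of them higher, against 73.7%. These shares of all genes count both directions. Of the 13566 genes, those that passed as higher numbered 3875 in T lymphocytes and 3477 in macrophages and monocytes. They numbered 4378 in endothelial cells and 5758 in fibroblasts. The members' median log2 fold change over keratinocytes was 0.72 in fibroblasts, 1.34 in endothelial cells, 1.24 in T lymphocytes and 1.68 in macrophages and monocytes, where the medians of all genes were 0.20, -0.10, -0.23 and -0.28.

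The largest of these differences were in the immunoproteasome. Psmb8 in macrophages and monocytes exceeded keratinocytes by a log2 fold change of 2.67 ± 0.21 (SE, edgeR adjusted p = 8.11e-10), and in T lymphocytes by 2.13 ± 0.20 (SE, edgeR adjusted p = 1.50e-08). Psmb9, the β1i subunit, was higher in macrophages and monocytes by 2.42 ± 0.19 (SE, edgeR adjusted p = 7.68e-10). In fibroblasts Tapbp was higher than in keratinocytes by 1.75 ± 0.15 (SE, edgeR adjusted p = 1.27e-09), whereas Nlrc5 was lower there, with a log2 fold change of -1.22 ± 0.19 (SE, edgeR adjusted p = 6.36e-06). That difference of Nlrc5 is an average over the groups and was largest in Sham, where fibroblasts had 6.13 and 4.51 CPM and keratinocytes 34.1 and 35.1. In the 4 treated libraries Nlrc5 was at 4.32 to 7.30 CPM in fibroblasts and 5.31 to 8.41 in keratinocytes, and in IMQ replicate 1 fibroblasts were higher (5.63 against 5.31 CPM).

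IMQ against Sham in keratinocytes was the comparison in which members passed the test. Nlrc5 and Tap1 fell, Psmb10 rose, and the other 7 members had lower levels in IMQ that did not pass. That is 3 of 10 members, where 12.9% of the 14204 genes tested passed. The members' median log2 fold change was -0.88, and that of all genes was -0.09. Replacing TMM by plain library totals moved the median of all genes to -0.41 and that of the members to -1.13, and 7 members then passed. The share of all genes that passed on plain library totals is not given. The median of the members was -0.38 without Sham replicate 1 and -1.28 without Sham replicate 2.

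Nlrc5, the transactivator, fell most among the members. It was at 34.1 and 35.1 CPM in the Sham pair, 5.31 and 6.42 in the IMQ pair, and 6.37 and 8.41 in the IMQ+SHP099 pair, from 2835, 1081, 231, 158, 929 and 83 UMIs in that order. Both Sham libraries lay above all 4 libraries of imiquimod-treated skin, with no overlap. The log2 fold change, IMQ over Sham, was -2.28 ± 0.26 (SE, edgeR adjusted p = 0.00192), and it passed with each library left out in turn (-2.50 to -2.02).

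The heavy chains and B2m were the most abundant of the 10 and were lower in IMQ without passing. H2-K1 was at 1349 and 989 CPM in the Sham pair, 499 and 560.0 in the IMQ pair, and 687 and 685 in the IMQ+SHP099 pair. B2m was at 1260.3 and 1074 CPM in the Sham pair, 469 and 609 in the IMQ pair, and 599.9 and 557 in the IMQ+SHP099 pair. Both IMQ libraries were below both Sham libraries in each gene, and the log2 fold changes were -0.90 ± 0.40 (SE, edgeR adjusted p = 0.166) for H2-K1 and -0.86 ± 0.38 (SE, edgeR adjusted p = 0.166) for B2m. Without Sham replicate 1 they were -0.33 and -0.43, and without Sham replicate 2 they were -1.31 and -1.19 and both passed (edgeR adjusted p = 0.0243 and 0.0427). The H2-D1 values, 1322 and 722 (Sham), 529 and 552 (IMQ) and 803 and 567 (IMQ+SHP099) CPM, were spread more widely within Sham. Its log2 fold change of -0.71 ± 0.50 (SE) had an edgeR adjusted p of 0.37 and became 0.15 without Sham replicate 1.

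In peptide transport and loading, Tap1 fell. The level of Tap1 was 88.9 and 86.7 CPM in the Sham pair, 24.2 and 30.5 in the IMQ pair, and 35.1 and 24.8 in the IMQ+SHP099 pair, so that all imiquimod-treated libraries were below both Sham libraries. Its log2 fold change was -1.41 ± 0.33 (SE, edgeR adjusted p = 0.0306). Without Sham replicate 1, IMQ replicate 1 or IMQ replicate 2 the adjusted p became 0.0829, 0.253 and 0.143. Tap2, the other subunit of the transporter, was at 44.8 and 35.5 (Sham), 20.1 and 31.03 (IMQ) and 16.6 and 23.4 (IMQ+SHP099) CPM. Both IMQ values were below both Sham values, with a log2 fold change of -0.41 ± 0.32 (SE, edgeR adjusted p = 0.422). For Tap2 the log2 fold change without Sham replicate 1 was 0.085, on the other side of 0. Tapbp read 66.2 and 77.2 (Sham), 27.5 and 39.4 (IMQ) and 29.7 and 34.1 (IMQ+SHP099) CPM, with a log2 fold change of -0.81 ± 0.25 (SE, edgeR adjusted p = 0.069).

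Of the 3 immunoproteasome subunits, Psmb10 passed the test and Psmb8 and Psmb9 did not. Psmb10 rose: its level was 23.1 and 19.7 CPM in the Sham pair, 44.3 and 46.6 in the IMQ pair, and 53.9 and 47.7 in the IMQ+SHP099 pair, with all 4 treated libraries above both Sham libraries. The log2 fold change of Psmb10 was 1.34 ± 0.31 (SE, edgeR adjusted p = 0.0284). It kept its sign with each library left out (1.02 to 1.78) and lost the call without Sham replicate 2 (adjusted p = 0.0561), IMQ replicate 1 (0.164) or IMQ replicate 2 (0.124). Psmb8 was at 143 and 60.1 CPM in the Sham pair, 31.01 and 45.9 in the IMQ pair, and 75.02 and 43.4 in the IMQ+SHP099 pair, and the Sham libraries differed from each other by more than Sham replicate 2 did from IMQ replicate 2. Psmb9 was at 80.9 and 49.8 (Sham), 19.6 and 26.6 (IMQ) and 34.6 and 25.2 (IMQ+SHP099) CPM. The log2 fold changes were -1.22 ± 0.56 (SE, edgeR adjusted p = 0.184) for Psmb8 and -1.28 ± 0.42 (SE, edgeR adjusted p = 0.083) for Psmb9. Without Sham replicate 1 they were -0.09 and -0.55, and without Sham replicate 2 they were -1.86 and -1.77 and both passed (edgeR adjusted p = 0.0354 and 0.0194). In CPM, which are scaled to plain library totals, 9 members were lower in both IMQ libraries than in either Sham library. So were 43.9% of all genes tested, and Psmb10 was the member higher in both. The fits used TMM factors instead, which were 1.39 for Sham replicate 2 and 0.921 and 0.996 for the IMQ pair. Overlap between the groups on that scale was not examined.

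**Figure D2:**
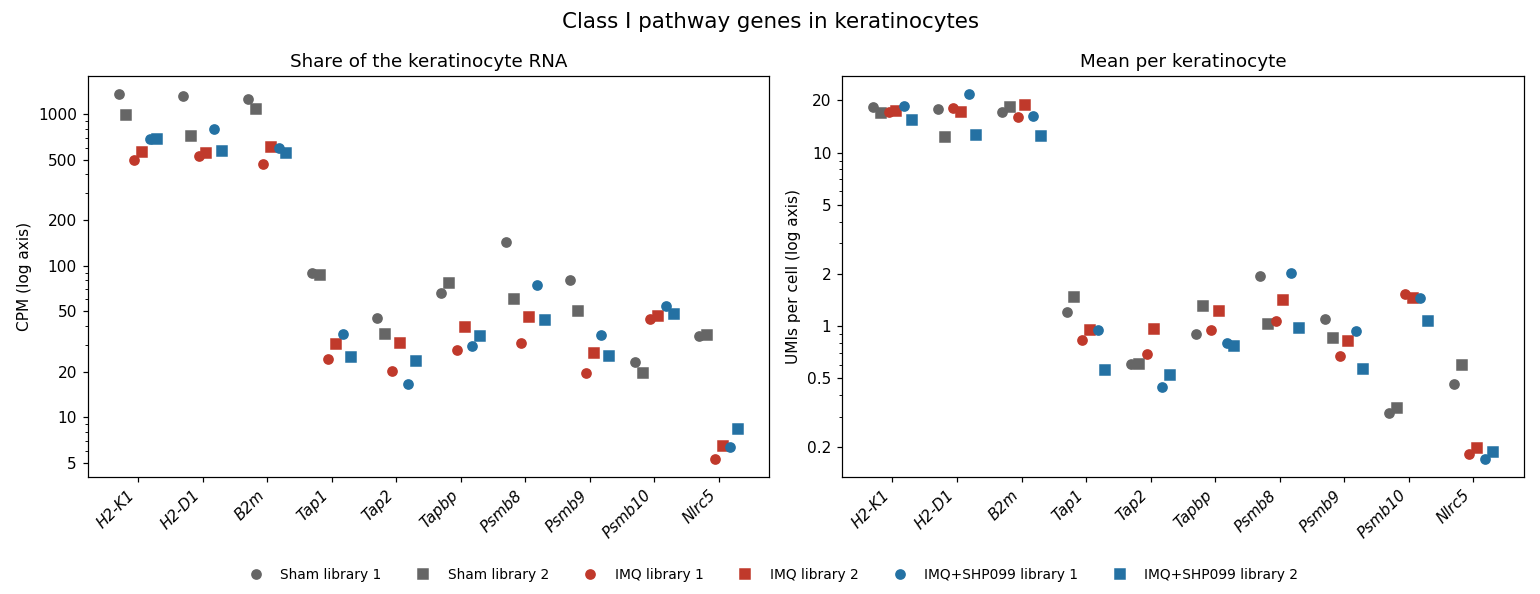
Levels of the 10 genes in keratinocytes of the 6 libraries, with 1 point per gene and library. In CPM, which are scaled to plain library totals, Nlrc5, Tap1, H2-K1, B2m, Tapbp, Psmb9 and Tap2 are lower in the 4 imiquimod-treated libraries than in both Sham libraries. Of all genes tested, 43.9% were lower in both IMQ libraries, and the share lower in all 4 treated libraries was not counted. Psmb10 is higher in the 4 treated libraries.

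The keratinocytes of the groups differed in UMIs per cell and makeup, and the values that moved with the comparison were these. The mean UMI count per keratinocyte was 13553 and 17008 for Sham, 34393 and 30934 for IMQ, and 26971 and 22392 for IMQ+SHP099. The summed level of 7 leukocyte genes in keratinocytes was 109 and 52.5 CPM for Sham, 30.4 and 24.2 for IMQ and 15.04 and 8.0 for IMQ+SHP099, all 7 with at least 1 UMI in each library, against 5980 to 9045 in T lymphocytes. Krt15, a marker of hair follicle and basal keratinocytes, had 3698 and 1940.4 (Sham), 48.4 and 199 (IMQ) and 93.7 and 75.6 (IMQ+SHP099) CPM. The part of UMIs per cell, leukocyte RNA and follicle cells in the members' changes was not tested.

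Counted per cell instead of scaled to a fixed total, the members divided differently. H2-K1 had 18.3 and 16.8 UMIs per keratinocyte in the Sham pair, 17.2 and 17.3 in the IMQ pair, and 18.5 and 15.3 in the IMQ+SHP099 pair, and the IMQ values lay within the Sham range. Nlrc5 had 0.463 and 0.597 UMIs per keratinocyte in the Sham pair, 0.183 and 0.199 in the IMQ pair, and 0.172 and 0.188 in the IMQ+SHP099 pair, lower in both IMQ libraries. Psmb10 had 0.314 and 0.335 UMIs per keratinocyte in the Sham pair, 1.52 and 1.44 in the IMQ pair, and 1.45 and 1.07 in the IMQ+SHP099 pair, higher in both. On this scale 3 members (Nlrc5, Tap1 and Psmb9) were lower in both IMQ libraries without overlap, where 9.34% of all genes were, 2 (Psmb10 and Tap2) were higher, where 56.6% were, and 5 overlapped. Nlrc5, Tap1, Psmb9 and Psmb10 therefore had the same direction on both scales, and Tap2 did not.

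The shares of keratinocytes with a UMI differed in the same directions once each cell was thinned to 1000 UMIs. Nlrc5 was seen in 3.97% and 3.65% for Sham, 0.568% and 0.897% for IMQ and 0.819% and 1.40% for IMQ+SHP099 of the thinned cells, and in 32.1% and 35.98% for Sham, 16.3% and 16.7% for IMQ and 15.2% and 16.3% for IMQ+SHP099 before thinning. For IMQ replicate 1 the exact 95% binomial interval of the thinned share of Nlrc5 was 0.23% to 1.17%, and for Sham replicate 1 it was 3.49% to 4.49%, intervals that cover counting error only. In mural cells, the class with the least Nlrc5, the thinned share was 0 to 0.446% at median depths of 4897 to 11030 UMIs per cell, where keratinocytes had 9883 to 34888. Psmb10 was seen in 2.18% and 1.68% for Sham, 3.98% and 4.74% for IMQ and 5.41% and 4.21% for IMQ+SHP099 of thinned cells, and in 3.65% to 9.47% of thinned mural cells. B2m was seen in 97.7% and 91.8% for Sham, 96.4% and 97.6% for IMQ and 98.4% and 92.3% for IMQ+SHP099 of unthinned cells, near the upper limit of a share, and in 68.2% and 57.7% for Sham, 37.1% and 41.03% for IMQ and 46.04% and 38.1% for IMQ+SHP099 after thinning.

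The keratinocytes were also divided by whether a cell had at least as many UMIs of the basal keratins Krt5 and Krt14 as of the suprabasal keratins Krt1 and Krt10, a division made after seeing the data. Basal-marker cells were 69.7% and 72.6% of the class for Sham, 83.5% and 91.1% for IMQ and 92.8% and 82.3% for IMQ+SHP099. The keratins used differed between the groups too. Krt14 was at 8140 and 5773 (Sham) and 15932 and 13965 (IMQ) CPM, and Krt10 at 6516 and 8050 (Sham) and 1924 and 1067 (IMQ). Krt1 was higher and Krt5 lower in both IMQ libraries. The same label can therefore hold different cells in each group, which was not tested. Nlrc5 was at 27.5 and 27.7 (Sham), 5.50 and 6.59 (IMQ) and 6.28 and 9.16 (IMQ+SHP099) CPM in basal-marker cells and at 48.5 and 49.7 (Sham), 4.25 and 4.78 (IMQ) and 7.82 and 3.69 (IMQ+SHP099) in suprabasal-marker cells. It fell in both, with log2 fold changes of -1.91 (edgeR adjusted p = 0.0084) and -3.11 (edgeR adjusted p = 0.000282). Tap1, at 87.1 and 88.8 (Sham), 24.5 and 31.5 (IMQ) and 35.5 and 24.8 (IMQ+SHP099) CPM in basal-marker and 92.7 and 82.5 (Sham), 22.5 and 20.4 (IMQ) and 28.5 and 25.1 (IMQ+SHP099) in suprabasal-marker cells, fell in both as well, by 1.36 and 1.68 on the log2 scale (edgeR adjusted p = 0.0401 and 0.00286).

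Psmb10 passed in 1 of the 2 kinds of keratinocyte. In basal-marker cells it was at 27.5 and 22.6 (Sham), 48.8 and 49.5 (IMQ) and 56.1 and 52.7 (IMQ+SHP099) CPM, and the log2 fold change of 1.23 passed narrowly (edgeR adjusted p = 0.0499). In suprabasal-marker cells Psmb10 was at 13.7 and 13.9 (Sham), 17.8 and 18.7 (IMQ) and 18.7 and 16.2 (IMQ+SHP099) CPM, and the log2 fold change of 0.75 did not pass (edgeR adjusted p = 0.108). Every Psmb10 value in suprabasal-marker cells was below the basal-marker value of the same library. The difference between the fold changes of the 2 strata was not tested.

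**Figure D3:**
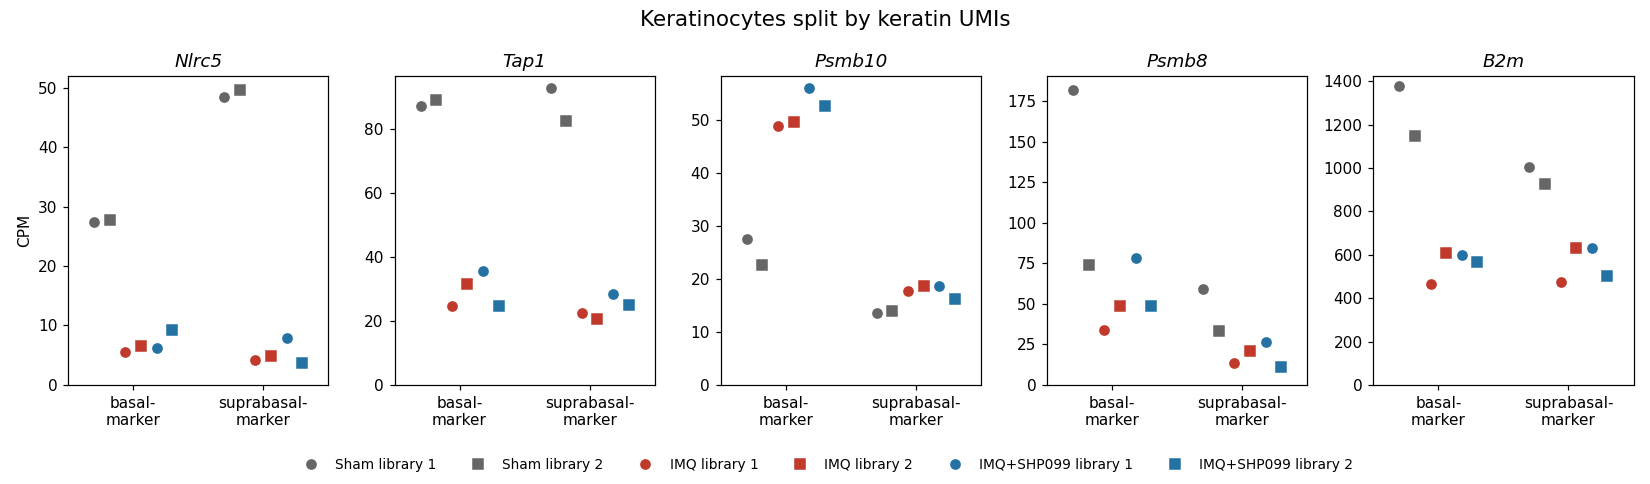
Levels in CPM in basal-marker and suprabasal-marker keratinocytes, 1 point per library. In suprabasal-marker cells Nlrc5 is near 49 in both Sham libraries and at most 7.8 in the treated libraries. Psmb10 lies between 13.7 and 18.7 there, with the treated libraries above both Sham libraries.

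In fibroblasts 0 members passed in IMQ against Sham, and 0.612% of 14694 genes did, with 2 members at an unadjusted edgeR p under 0.05 and 0 under DESeq2. The share of all genes at the unadjusted limit is not given here. All 10 had negative log2 fold changes, with a median of -0.44 against -0.01 for all genes, and 5 were lower in both IMQ libraries, as were 21.3% of all genes. Without Sham replicate 1 the median of the members was 0.25. Nlrc5 was at 6.13 and 4.51 (Sham), 5.63 and 4.32 (IMQ) and 5.96 and 7.30 (IMQ+SHP099) CPM in fibroblasts, with overlapping groups. Psmb10 was at 129 and 73.4 (Sham), 60.98 and 81.1 (IMQ) and 102 and 83.0 (IMQ+SHP099), so that its IMQ values overlapped the Sham values.

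In endothelial cells the test called 0 of 10 members, and 15 genes in all (0.151%). The members had a median log2 fold change of -1.02, against -0.03 for all genes, 6 reached an unadjusted edgeR p under 0.05, and 9 were lower in both IMQ libraries, as were 26.4% of all genes. The number of all genes at that unadjusted p is not given, so the 6 have no background beside them. Without Sham replicate 1 the median was -0.41, and without Sham replicate 2 it was -1.48. Tapbp was at 374 and 319.9 CPM in the Sham pair, 112 and 134 in the IMQ pair, and 115 and 208 in the IMQ+SHP099 pair. All treated libraries were below both Sham libraries, and the log2 fold change was -1.43 ± 0.33 (SE, edgeR adjusted p = 0.155), which DESeq2 called and edgeR did not. Psmb10, which rose in keratinocytes, was at 229 and 132 (Sham), 74.2 and 89.9 (IMQ) and 85.1 and 110.2 (IMQ+SHP099) CPM in endothelial cells, with a log2 fold change of -1.04 ± 0.35 (SE, edgeR adjusted p = 0.252). For H2-D1 the values were 3992 and 2206 (Sham), 2719.9 and 2644 (IMQ) and 2763 and 3159 (IMQ+SHP099), which overlapped.

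In T lymphocytes, all myeloid cells, and macrophages and monocytes the members gave 0 calls too, with edgeR and with DESeq2. In T lymphocytes 0.0115% of 8686 genes passed, 2 members reached an unadjusted edgeR p under 0.05, and 5 of 10 members were higher in IMQ. For the classes of this paragraph, too, no share of all genes at the unadjusted limit is given. Psmb8 was at 290.1 and 283 CPM in the Sham pair, 401 and 442 in the IMQ pair, and 276 and 288 in the IMQ+SHP099 pair, higher in both IMQ libraries than in the other 4, with a log2 fold change, IMQ over Sham, of 0.71 ± 0.28 (SE, edgeR adjusted p = 0.343). In all myeloid cells 0.00921% of 10852 genes passed, 0 members reached an unadjusted edgeR p under 0.05, and the members had a median log2 fold change of 0.08. On simulated myeloid sums 0% of genes changed by 1 or by 2 on the log2 scale were recovered. A missing call in this class therefore says nothing about a change. In macrophages and monocytes 2.77% of 8686 genes passed, 1 member (H2-K1) reached an unadjusted edgeR p under 0.05, and 6 members were lower in both IMQ libraries, as were 25.2% of all genes. H2-K1 was at 2639 and 2369 CPM in the Sham pair, 976 and 1129.9 in the IMQ pair, and 881 and 1389.9 in the IMQ+SHP099 pair, with a log2 fold change of -1.16 ± 0.36 (SE, edgeR adjusted p = 0.138). The macrophage makeup changed beside it: C1qa, of resident macrophages, was at 3596 and 2649.6 (Sham), 1053 and 993 (IMQ) and 3273 and 762 (IMQ+SHP099) CPM. The part of that change in makeup was not tested.

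The T lymphocytes could be divided by their receptor. In cells with Trac and no Trdc UMI, Psmb8 was at 537 and 384 (Sham), 536 and 599.6 (IMQ) and 497 and 353 (IMQ+SHP099) CPM, and in cells with Trdc and no Trac UMI it was at 226 and 208 (Sham), 353 and 326 (IMQ) and 228 and 266 (IMQ+SHP099). Psmb8, Psmb9, B2m, Tap2 and Nlrc5 were each higher in the Trac cells in 6 of 6 libraries. The medians over libraries were 198 and 76.2 CPM for Psmb9 and 32.4 and 21.8 for Nlrc5. Tapbp showed no such order, with the Trac cells higher in 3 of 6 libraries. The division used receptor genes only, and no test was made on it. How many of all genes were higher in the Trac cells in every library was not counted. The order is therefore not shown to be particular to the members.

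**Figure D4:**
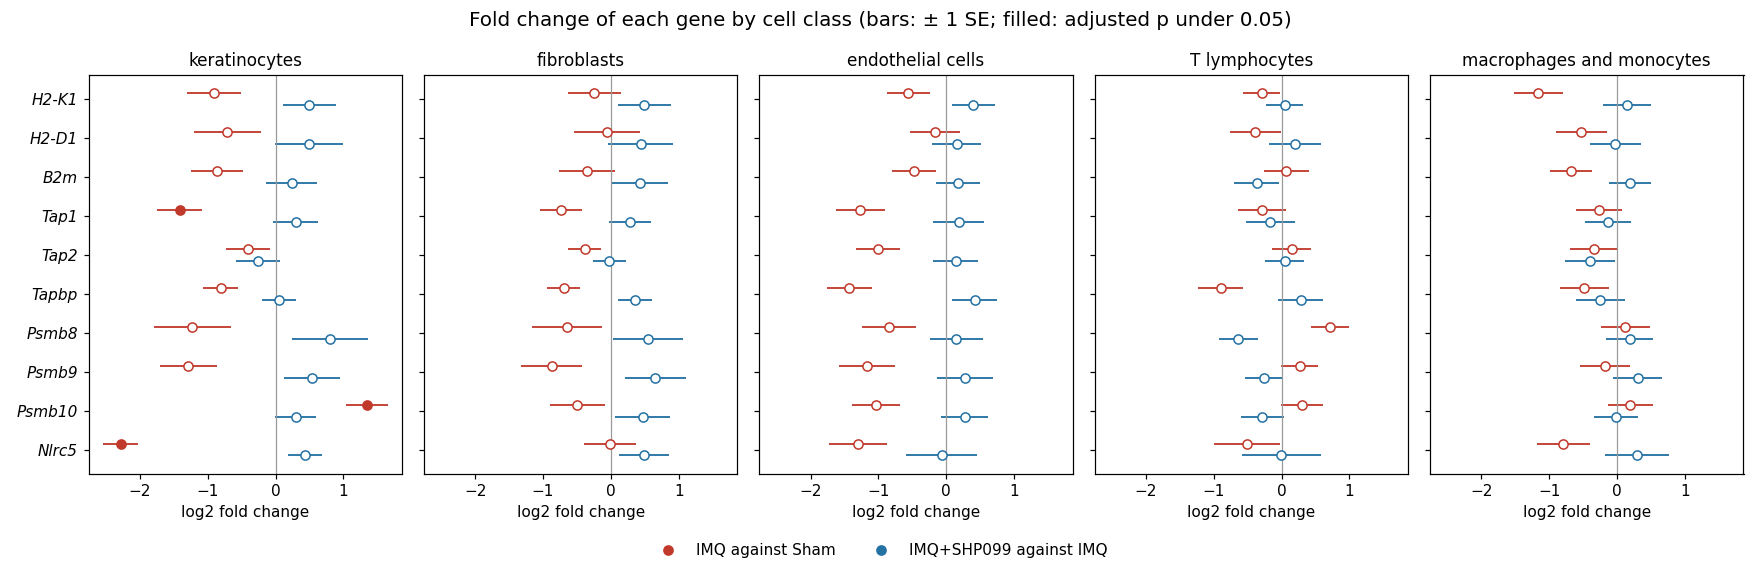
The log2 fold change of each gene, IMQ over Sham and IMQ+SHP099 over IMQ, by cell class, with bars of 1 SE from the edgeR fits and filled points for an adjusted p under 0.05. The filled points are Nlrc5, Tap1 and Psmb10 in keratinocytes in IMQ against Sham, and there are none in IMQ+SHP099 against IMQ.

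Whether the response to imiquimod differed between classes was tested as an interaction in the joint fit. Nlrc5 differed between fibroblasts and keratinocytes: its log2 fold change was higher in fibroblasts by 2.34 ± 0.46 (SE, edgeR adjusted p = 0.00287). Psmb10 differed in the other direction, with a difference of -1.77 ± 0.41 (SE, edgeR adjusted p = 0.00911) between fibroblasts and keratinocytes and of -2.31 ± 0.42 (SE, edgeR adjusted p = 0.00529) between endothelial cells and keratinocytes. That made 2 members in fibroblasts, where 9.56% of genes passed, and 1 in endothelial cells, where 2.45% passed. In T lymphocytes (2.82% of genes) and in macrophages and monocytes (3.48%) 0 members passed, and in T lymphocytes Psmb8 was nearest to the threshold, with a difference of 1.74 ± 0.48 (SE, edgeR adjusted p = 0.0562). Each of these calls was lost without IMQ replicate 1 and those of Psmb10 also without IMQ replicate 2. Without IMQ replicate 1 the adjusted p was 0.15 for Nlrc5 and 0.263 for Psmb10 in fibroblasts and 0.255 for Psmb10 in endothelial cells. Without IMQ replicate 2 the adjusted p of Psmb10 was 0.119 in fibroblasts and 0.113 in endothelial cells.

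SHP099 on top of imiquimod left the members without a call in every class. In IMQ+SHP099 against IMQ, edgeR passed 0 genes (0.0%) in keratinocytes, fibroblasts, endothelial cells, T lymphocytes, myeloid cells and their macrophage and monocyte subset, and 0 members reached an unadjusted p under 0.05. DESeq2 also called 0 members. Genes of any kind at an unadjusted edgeR p under 0.05 numbered 345, 107, 365, 206, 139 and 177. The values of this comparison and of IMQ against Sham share the IMQ libraries.

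The estimates for the members were mostly positive in the structural cells. In keratinocytes 9 of 10 log2 fold changes were above 0, with a median of 0.37 against 0.05 for all genes, and 3 members were higher in both IMQ+SHP099 libraries, as were 9.72% of genes. In fibroblasts 9 were above 0, with a median of 0.45 against 0.02, and 6 were higher in both libraries, as were 7.3% of genes. In endothelial cells 9 were above 0, with a median of 0.18 against 0.01, and 5 were higher in both libraries, as were 16.2% of genes. The estimates were wide: Nlrc5 in keratinocytes changed by 0.43 ± 0.26 and Psmb8 by 0.81 ± 0.56 (log2 fold change ± SE). In keratinocytes the median of the members was 0.01 without IMQ+SHP099 replicate 1. The difference between classes in this response was called for 0 genes (0.0%) in all 4 classes compared with keratinocytes, with 287 to 516 genes at an unadjusted p under 0.05.

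The ratio of each inducible subunit to the constitutive subunit it replaces was taken from UMI counts, which in a 3′ assay do not scale with transcript length. In keratinocytes the ratio of Psmb8 to Psmb5 UMIs was 0.74 and 0.289 in the Sham pair, 0.0868 and 0.125 in the IMQ pair and 0.217 and 0.149 in the IMQ+SHP099 pair. The ratio of Psmb9 to Psmb6 was 0.344 and 0.237 in the Sham pair, 0.0653 and 0.0875 in the IMQ pair and 0.102 and 0.107 in the IMQ+SHP099 pair. Psmb10 to Psmb7 was 0.199 and 0.137 in the Sham pair, 0.284 and 0.292 in the IMQ pair and 0.353 and 0.329 in the IMQ+SHP099 pair. Both IMQ libraries were thus below both Sham libraries in the first and the second ratio and above them in the third.

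As differences of mean log2 ratio, IMQ minus Sham in keratinocytes, these were -2.15, -1.92 and 0.80. An exact two-sided permutation test of 2 libraries against 2 cannot go below p = 0.33, which each of them had. In endothelial cells the ratio of Psmb8 to Psmb5 was 3.76 and 2.12 in the Sham pair, 1.14 and 1.03 in the IMQ pair and 1.27 and 1.69 in the IMQ+SHP099 pair, and the differences were -1.37, -1.62 and -1.45, all of them negative. The denominators moved as well: Psmb5 in keratinocytes was at 193 and 208 (Sham), 357 and 367 (IMQ) and 346 and 291 (IMQ+SHP099) CPM, with a log2 fold change of 1.14 ± 0.33 (SE, edgeR adjusted p = 0.0558). Psmb6 changed by 0.71 ± 0.38 (SE, edgeR adjusted p = 0.247) and Psmb7 by 0.58 ± 0.27 (SE, edgeR adjusted p = 0.191), neither of which passed.

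**Figure D5:**
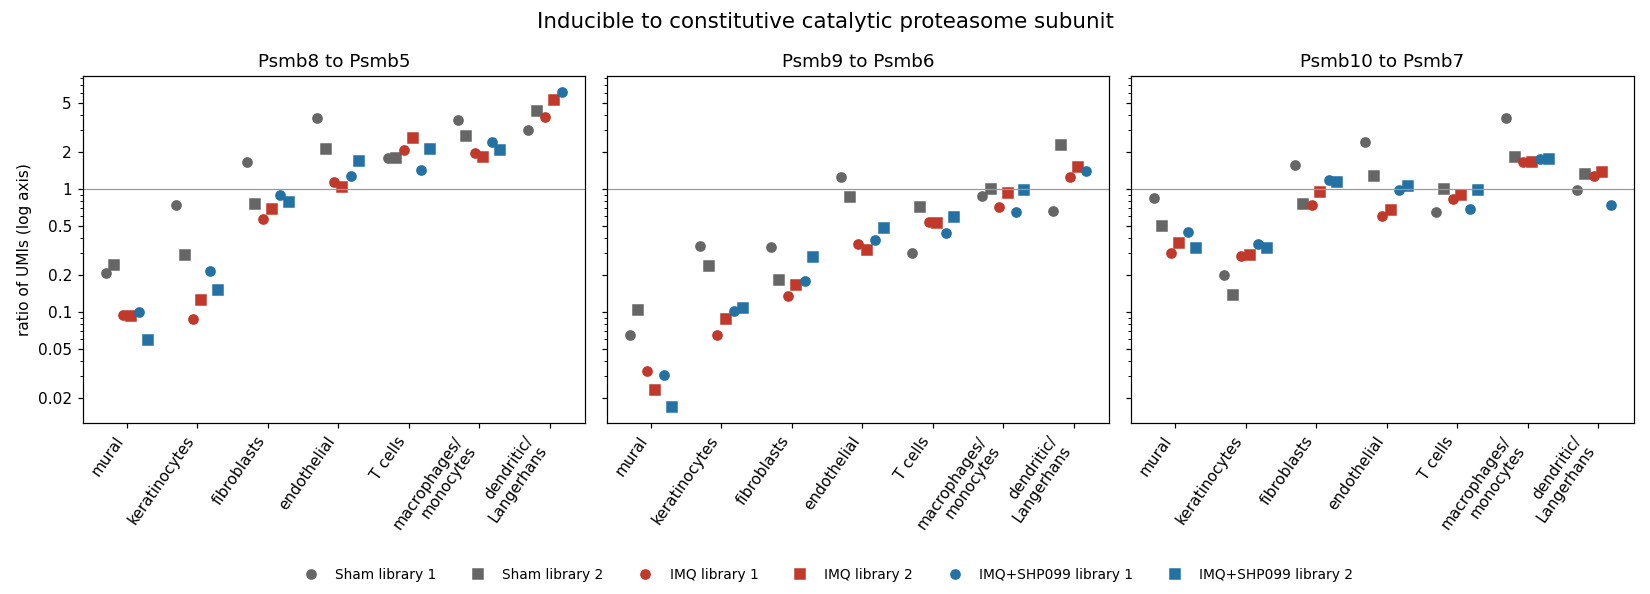
Ratio of inducible to constitutive proteasome subunit UMIs by cell class on log axes, 1 point per library coloured by group. In keratinocytes Psmb8 to Psmb5 and Psmb9 to Psmb6 are lower in the IMQ than in the Sham libraries and Psmb10 to Psmb7 is higher, while in endothelial cells all 3 ratios are lower.

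Of 36 further genes of the pathway, 35 were tested in keratinocytes, where 1 was higher and 5 were lower in IMQ, beside 12.9% of all genes called in either direction. The group of other class I heavy chains held 4 of the falls among 7 tested, with a median log2 fold change of -1.56. H2-Q6 and H2-Q7, class Ib molecules of the Qa-2 family, were lower in both IMQ libraries. H2-Q6 was at 95.4 and 55.6 CPM in the Sham and 5.2 and 6.10 CPM in the IMQ libraries, H2-Q7 at 224 and 136 CPM in the Sham and 23.9 and 38.4 CPM in the IMQ libraries, and their log2 fold changes were -3.53 ± 0.44 (SE, edgeR adjusted p = 0.00261) and -2.32 ± 0.52 (SE, edgeR adjusted p = 0.026). H2-M3, which presents formylated peptides, was at 13.5 and 6.07 CPM in the Sham and 1.22 and 1.26 CPM in the IMQ libraries, with -2.79 ± 0.61 (SE, edgeR adjusted p = 0.0237). H2-Q4, named after its value was seen, changed by -1.56 ± 0.39 (SE, edgeR adjusted p = 0.0372). In the last 500 bases of H2-Q6 and H2-Q4, 6.23% and 6.48% of the windows occurred in other genes, so reads could be lost or shared there. With each library left out, H2-Q6 kept its call, whereas H2-Q7 lost it without Sham replicate 1 (adjusted p = 0.0798), IMQ replicate 1 (0.162) or IMQ replicate 2 (0.0575), H2-M3 without those and without IMQ+SHP099 replicate 1 (0.0514 to 0.097), and H2-Q4 without each library other than Sham replicate 2 (0.0801 to 0.203). H2-Q6 and H2-Q7 fell in macrophages and monocytes too, where 2.77% of all genes passed, with -2.35 ± 0.41 (SE, edgeR adjusted p = 0.0162) and -1.81 ± 0.41 (SE, edgeR adjusted p = 0.0447), calls that were lost without Sham replicate 2, IMQ replicate 1 or IMQ replicate 2 (adjusted p = 0.0655 to 0.409). In the other classes 0 genes of the list passed.

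Among the regulators, Socs1, a feedback inhibitor of cytokine receptor signalling, rose in keratinocytes, where it was at 7.55 and 10.9 CPM in the Sham and 35.4 and 26.2 CPM in the IMQ libraries, with a log2 fold change of 2.07 ± 0.30 (SE, edgeR adjusted p = 0.00489). Irf9, the DNA-binding subunit of the type I interferon-activated complex ISGF3 and also named after its value was seen, fell, with 15.2 and 26.1 CPM in the Sham and 8.30 and 8.74 CPM in the IMQ libraries and a log2 fold change of -0.94 ± 0.25 (SE, edgeR adjusted p = 0.0435). Socs1 kept its call with each library left out, and Irf9 lost it when any 1 library other than Sham replicate 1 was left out (adjusted p = 0.0537 to 0.357). Irf1, an activator of class I genes downstream of interferon gamma, was at 28.2 and 136 (Sham), 183 and 197 (IMQ) and 61.7 and 177 (IMQ+SHP099) CPM, and its log2 fold change was 1.66 ± 0.59 (SE, edgeR adjusted p = 0.101). The PA28 subunits Psme1 and Psme2 changed by -0.26 ± 0.36 and 0.43 ± 0.41 (SE), and 0 of the 5 loading and trimming genes passed. Irf1 had no call, while Nlrc5 and Tap1 did.

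Interferon gamma itself was read in T lymphocytes, where Ifng was at 14.1 and 384 (Sham), 186 and 327 (IMQ) and 23.5 and 311 (IMQ+SHP099) CPM. Sham replicate 1 and IMQ+SHP099 replicate 1 were far below the other 4 libraries, so the groups overlapped.

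Across the 30 sums of 5 classes by 6 libraries, genes most like the mean of the members included Psme1 (Pearson r = 0.93), H2-T23 (0.90), Inpp4a (0.90) and Rapgef2 (0.88), among 6515 genes. The members themselves correlated with each other at r of 0.09 to 0.93, with a median of 0.70 over 45 pairs. The points share libraries and classes, and the values are a description.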

How the data were processed

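Single-cell suspensions of dorsal skin were sequenced with the 10x 3′ assay in 6 libraries, and the labels gave the groups. The authors made the deposited raw UMI counts per gene and barcode with Cell Ranger 3.1.0 on mm10 (GRCm38). No filter on doublets beyond the limits given here was applied, and doublets were otherwise limited by the gate. Barcodes at or above 100000 UMIs, 6500 genes or 10% mitochondrial UMIs were dropped. A cell entered a class when its score over the class markers reached 0.15, at least 3 markers had a UMI (2 for myeloid subsets) and the next class scored at most 0.5 of it. Counts were summed per library and class and scaled to 1000000 UMIs (CPM), and a level was given from 20 cells upwards. Sums were tested with edgeR 4.0.16 (R 4.3.3; TMM scaling, filterByExpr, quasi-likelihood F test, two-sided, all 6 libraries in the fit, Benjamini-Hochberg adjustment over all genes tested, threshold 0.05) and with DESeq2 1.42.0 as an alternative. Fold changes are on the log2 scale, and SE is the log2 fold change divided by the root of F. TMM factors in keratinocytes ran from 0.789 to 1.39. Differences between classes came from 1 fit over 5 classes with the library as a block. Ratios and orders were computed in Python 3.11.15 with scipy 1.17.1.

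The 10 genes and all lists were chosen with earlier results of these data known. All 10 are described. Of the 36 pathway genes, up to 4 past the threshold per class and comparison, by size of change, were named, with Irf1, Psmb5, Psmb6, Psmb7, Psme1 and Psme2 always. The values of 1 further gene that these rules name are not reported here. The genes most like the members were ranked among those with a mean of at least 20 CPM. The alternatives tried were RLE size factors, DESeq2, no filter, 2 groups only, the replicate block, each library left out, a 5% mitochondrial limit, cluster classes and a stricter gate. The alternatives without TMM, in basal-marker and suprabasal-marker keratinocytes, and with libraries left out of the joint fit were added after seeing the data. On simulated keratinocyte sums of 14204 genes, 54% of genes changed by 2 on the log2 scale were recovered and 6% of those changed by 1.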

Additional observations from a re-analysis of the deposited data

Results flagged for a closer look

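The results in this part differed between cell classes under the same comparison, by the interaction term of the joint edgeR fit. Nlrc5 had a log2 fold change, IMQ over Sham, that was 2.34 higher in fibroblasts than in keratinocytes (edgeR adjusted p = 0.00287), where it fell. The difference of Psmb10 was -1.77 between fibroblasts and keratinocytes (edgeR adjusted p = 0.00911) and -2.31 between endothelial cells and keratinocytes (edgeR adjusted p = 0.00529). The log2 fold change of Psmb10 itself was 1.34 in keratinocytes and -1.04 in endothelial cells. The sign of each was the same with each library left out, with ranges of 1.99 to 2.63, -2.02 to -1.46 and -2.46 to -2.22. The mean UMI count per keratinocyte and the share of basal-marker cells also differed between Sham and IMQ, and their part in these differences was not tested.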

How the results depend on the processing

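Of the single-gene values recomputed under alternatives, 257 kept their direction and their side of the threshold, 23 newly passed, 35 no longer passed and 2 reversed. In keratinocytes, where 3 members passed in IMQ against Sham, 5 passed with DESeq2, 5 without a filter on low counts and 7 without TMM, and 1 to 6 with each library left out in turn (1 without IMQ replicate 1 or IMQ replicate 2, 6 without Sham replicate 2). The reversed values were H2-D1 and Tap2 in keratinocytes, whose log2 fold changes with a library left out ran from -1.25 to 0.15 and from -0.78 to 0.085, above 0 without Sham replicate 1. In endothelial cells, with 0 members in the main result, DESeq2 gave 1 (Tapbp), no filter 5 and leaving out a library 0 to 1 (1 without Sham replicate 2). In macrophages and monocytes, cluster classes gave 1 (H2-K1) in place of 0. For the difference between classes in IMQ against Sham, leaving out a library gave 0 to 2 members in fibroblasts and 0 to 1 in endothelial cells, with 0 in both without IMQ replicate 1. In T lymphocytes that difference was called for 1 member with RLE size factors, 2 with cluster classes, 3 without TMM and 0 to 4 with a library left out (4 without Sham replicate 2). The cause of these changes was not tested, beyond the smaller number of libraries. Over all genes, the T lymphocyte difference between classes passed for 447 of 13566 with RLE size factors and 685 of 14034 with cluster classes. Without TMM it passed for 472 of 13566. Beside the other counts of members under alternatives, the number of all genes passing is not given. The calls of IMQ+SHP099 against IMQ stayed at 0 members under every alternative run.

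With the replicate number as a block, 4 members passed in keratinocytes (Psmb9 added, log2 fold change -1.15, edgeR adjusted p = 0.0387) in place of 3. Same-numbered libraries correlated at 0.12, 0.03 and 0.23 in keratinocytes in their deviations from the group means, at -0.01, 0.11 and 0.06 in fibroblasts, and at -0.07, 0.02 and 0.04 in endothelial cells. They correlated at 0.16, 0.16 and 0.39 in T lymphocytes, at 0.25, 0.29 and 0.34 in myeloid cells, and at 0.08, 0.08 and 0.11 in macrophages and monocytes. Since the labels give no shared source for the numbers and there are only 2 of them in each group, they were not taken as a pairing. The block gave 0 members in every class other than keratinocytes, as did the fit without it.

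With 2 libraries in each group, a change of 1 on the log2 scale was recovered for few genes, and a missing call does not show equal levels. In all myeloid cells 0% of genes changed by 1 or by 2 were recovered in the simulation. Thinning to 2000 in place of 1000 UMIs moved 57 of the 60 shares of keratinocytes with a UMI.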

Other observations

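Neutrophils reached 20 cells in 3 libraries: IMQ replicate 1, IMQ replicate 2 and IMQ+SHP099 replicate 2. H2-D1 was at 2776, 2884 and 3568 CPM there, and B2m at 991, 1148 and 1612. The Sham libraries held 5 and 7 neutrophils, below the minimum of 20 cells, and no comparison with Sham was made.

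Ifng in the Trac cells was at 62.6 and 535 CPM (Sham), 529.5 and 572 (IMQ) and 42.6 and 731 (IMQ+SHP099) in order of replicate. Replicate 1 was the low library in both groups that held one.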
